A study of Mus musculus with 2 samples.

Results

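The genes described here are 36 imprinted genes of the mouse, grouped into 16 imprinted domains, in DNase-seq of embryonic retina. They were taken by symbol from a list of well-known imprinted genes, and all 36 were found among 31868 protein-coding and long noncoding genes of the annotation (28 of the 36 are protein-coding and 8 are long noncoding). DNase-seq maps stretches of chromatin that the nuclease DNase I can cut, and it was run on retina of B6NCrl mouse embryos at day 14.5, with male and female tissue pooled. The study has 1 group of 2 biological replicates, which carry separate biosample labels and one donor label, so nothing was compared between conditions and no test was made. The strain is inbred and the files hold no reads, so the maternal and the paternal copy of a gene cannot be told apart.

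Imprinted genes are expressed mainly or wholly from the copy inherited from one parent. The choice is laid down in the germ line as DNA methylation at control regions, which are methylated on one parental copy and open on the other, and a control region can act on a cluster of genes through an insulator bound by CTCF or through a long noncoding RNA. The zinc finger protein ZFP57 keeps methylation at many control regions by binding a methylated hexamer. Several of these genes, among them Ube3a, Grb10 and Dlk1, are known to be imprinted differently in the nervous system and in other tissues.

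Each peak in the deposited lists is 150 bp wide and has a score whose meaning the sources do not state. Scores were therefore turned into percentile ranks within a library, where 100 is the strongest peak. A promoter peak overlaps the 1 kb on either side of any annotated transcription start of a gene. A hotspot is a broader accessible region with a −log10 false discovery rate that is capped at 100 in these files. The lists held 165037 peaks on assembled chromosomes in replicate 1 and 219142 in replicate 2, and the number of reads behind them is unknown. The promoters of 11 of 11 retina genes, such as Rax and Pax6, had a peak in both libraries, as did 2 of 12 markers of other tissues (Afp and Myod1). Over all protein-coding genes the share was 68.8%. Among all genes it was 92.1% at CpG-rich starts and 23.8% at CpG-poor ones, classes defined below. All the retina genes but Rax are in the first class, and all the other markers but Afp and Myod1 in the second. The part of CpG content in this contrast was not tested.

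The sequences below carry most of what follows: they are peaks in or beside known control regions of the H19, Kcnq1ot1, Snrpn, Peg3, Dlk1-Meg3 and Rasgrf1 domains, and the peak on which the state of Ndn depends. Capitals mark matches on either strand to 4 short motifs. These were a CTCF core (CNAGNNGGC), the CTCF form known from the H19 control region (GNGGNGGCA), the ZFP57 hexamer (TGCCGC) and a YY1 core (GCCATNTT). The letters are those of the mm10 plus strand, read 5′ to 3′ from the reference genome. The Meg3 peak has its position in replicate 2, and the other peaks have theirs in replicate 1.
H19 upstream 1, chr7:142580236-142580385: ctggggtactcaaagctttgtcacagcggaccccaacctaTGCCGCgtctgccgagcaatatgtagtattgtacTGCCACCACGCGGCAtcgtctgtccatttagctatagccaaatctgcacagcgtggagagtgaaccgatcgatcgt
H19 upstream 2, chr7:142580636-142580785: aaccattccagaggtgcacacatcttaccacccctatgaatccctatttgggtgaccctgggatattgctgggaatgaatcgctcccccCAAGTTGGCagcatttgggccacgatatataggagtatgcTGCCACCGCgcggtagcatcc
H19 upstream 3, chr7:142581736-142581885: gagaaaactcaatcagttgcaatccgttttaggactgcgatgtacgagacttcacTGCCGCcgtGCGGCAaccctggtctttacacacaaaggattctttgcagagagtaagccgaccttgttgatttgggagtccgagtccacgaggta
Kcnq1ot1 start, chr7:143295616-143295765: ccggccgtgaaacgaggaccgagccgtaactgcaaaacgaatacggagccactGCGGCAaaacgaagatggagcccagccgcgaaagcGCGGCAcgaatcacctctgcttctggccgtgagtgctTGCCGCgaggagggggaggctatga
Snrpn start, chr7:60005076-60005225: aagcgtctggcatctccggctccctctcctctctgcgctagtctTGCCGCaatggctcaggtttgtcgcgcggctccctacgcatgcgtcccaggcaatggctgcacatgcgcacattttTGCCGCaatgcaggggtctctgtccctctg
Peg3 start, chr7:6729496-6729645: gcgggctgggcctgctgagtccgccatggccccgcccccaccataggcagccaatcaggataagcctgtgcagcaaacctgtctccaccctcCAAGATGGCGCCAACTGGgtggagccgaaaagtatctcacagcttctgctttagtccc
Peg3 intron, chr7:6728396-6728545: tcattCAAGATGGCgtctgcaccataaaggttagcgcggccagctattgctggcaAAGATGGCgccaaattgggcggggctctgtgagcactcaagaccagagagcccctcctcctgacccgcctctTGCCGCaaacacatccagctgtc
Meg3 upstream, chr12:109527576-109527725: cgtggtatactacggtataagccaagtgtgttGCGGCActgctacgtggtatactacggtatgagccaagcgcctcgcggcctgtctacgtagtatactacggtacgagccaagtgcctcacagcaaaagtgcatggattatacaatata
Rasgrf1 upstream, chr9:89879696-89879845: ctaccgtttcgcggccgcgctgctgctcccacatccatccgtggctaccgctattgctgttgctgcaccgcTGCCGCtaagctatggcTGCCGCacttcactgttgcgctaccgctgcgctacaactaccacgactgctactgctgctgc
Ndn exon, chr7:62348216-62348365: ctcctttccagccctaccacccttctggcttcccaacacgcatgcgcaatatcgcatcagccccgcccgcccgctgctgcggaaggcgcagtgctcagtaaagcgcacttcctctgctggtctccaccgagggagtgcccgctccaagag
The matches can overlap or adjoin. In both Peg3 peaks a CTCF core match and a YY1 match cover the same letters (CAAGATGGC), and in the first H19 peak a match to the H19-type CTCF motif runs straight into a ZFP57 hexamer. The H19-type motif can also itself hold the reverse form of that hexamer. A match describes the letters only and says nothing about what is bound there.

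Most of the 36 imprinted genes had an accessible promoter in embryonic retina. A promoter peak was found for 30 of 36 in replicate 1 and 31 of 36 in replicate 2, and for 30 in both libraries. Among the protein-coding imprinted genes 24 of 28 had one in both libraries, against 68.8% of all protein-coding genes. In each library taken alone the number was again 24 of 28, against 69.7% of protein-coding genes in replicate 1 and 71.3% in replicate 2. Among the long noncoding imprinted genes 6 of 8 had a promoter peak in both libraries, against 33.9% of all long noncoding genes. Hotspots gave the same counts, 24 of 28 against 69.1% of protein-coding genes and 6 of 8 against 35.1% of long noncoding genes.

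**Figure D1:**
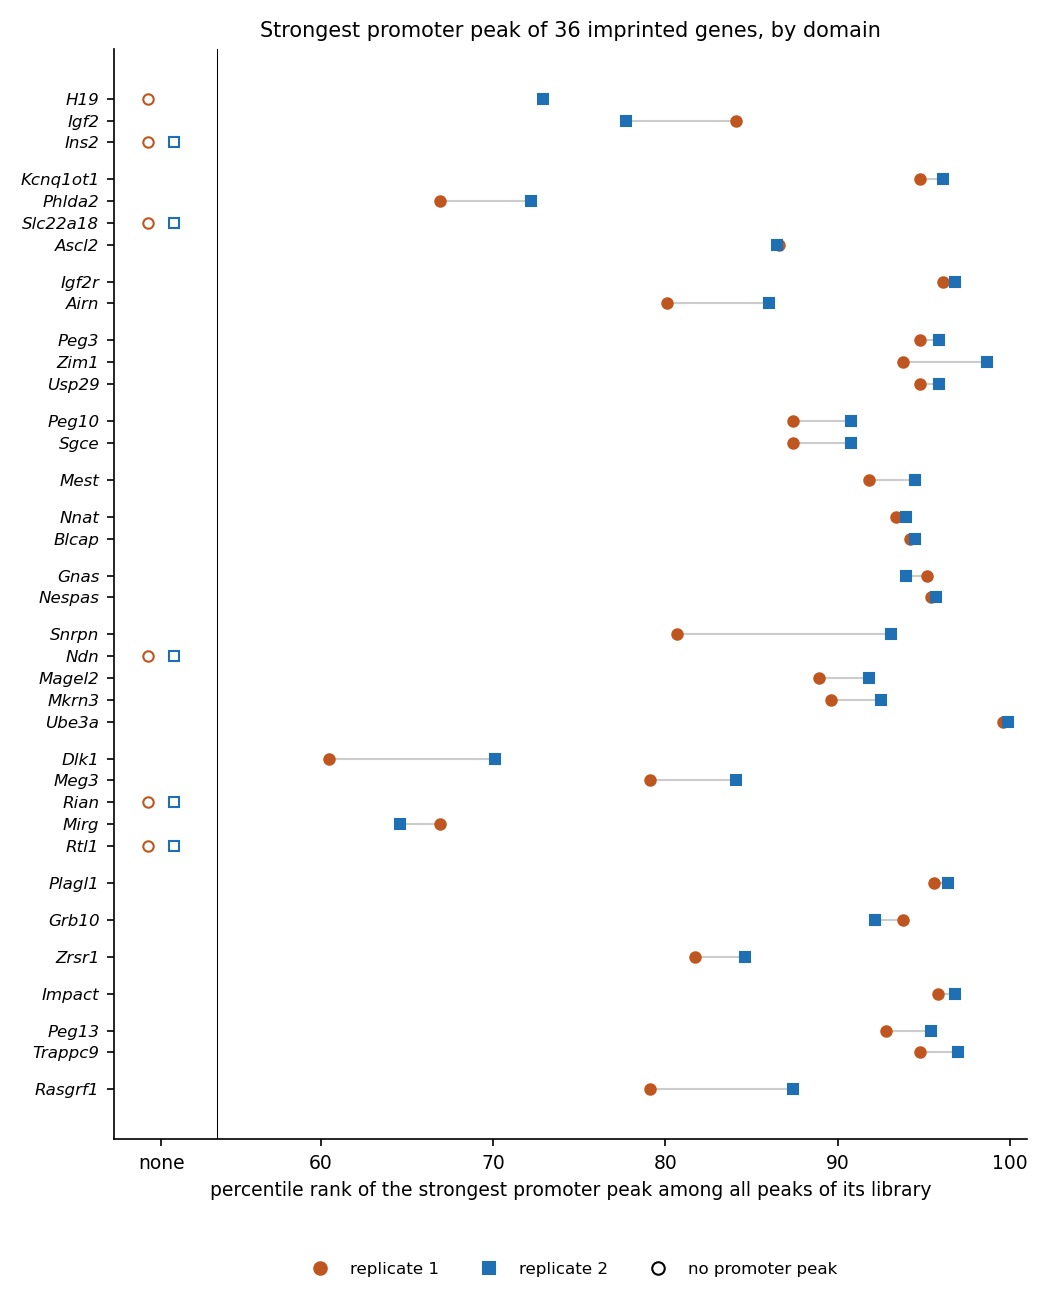
Percentile rank of the strongest promoter peak of each of the 36 imprinted genes (x axis, 100 is the strongest peak of the library), with genes grouped by domain down the page, circles for replicate 1 and squares for replicate 2. Open symbols at the left stand for genes with no promoter peak; Ube3a lies highest at 99.6 and 99.9, and 5 genes have open symbols for both libraries.

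These promoters were strong but not the strongest of the genome. Among genes with a promoter peak, the median rank of the strongest one was 92.3 in replicate 1 and 93.1 in replicate 2 for the imprinted genes, and 94.2 and 95.0 for all genes. The protein-coding imprinted genes had medians of 92.6 and 93.6, against 95.0 and 95.9 for all protein-coding genes. The long noncoding ones had medians of 86.5 and 86.0, against 82.7 and 83.1 for all long noncoding genes. Both ranks were above 90 for 16 of the 30 genes, and a rank of 75 or lower in at least one library was found for 3 (Phlda2, Dlk1 and Mirg). In 26 of the 30 genes the strongest promoter peaks of both libraries overlapped each other. The strongest promoter peak lay within 100 bp of an annotated start in both libraries for 16 of the 30. For these counts by rank, overlap and distance no share over all genes is at hand, so they only describe these genes.

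Promoter peaks were more common at CpG-rich starts among the imprinted genes, as they were among all genes. CpG content is given as the observed over the expected number of CpG dinucleotides in the 500 bp on either side of the gene's 5′ end. Of the 26 imprinted genes above the median ratio of all genes, 0.382, 25 had a promoter peak in both libraries, which is near the 92.1% of all such genes, and the exception was H19. Of the 10 below it, 5 had one (Blcap, Igf2, Mest, Mirg and Snrpn), against 23.8%. In 4 of these 5 the peak shared by both libraries lay at another annotated start, since Igf2 and Mirg had none within 1 kb of the 5′ end in either library, and Mest and Snrpn had none there in replicate 1. The division at the median was chosen after the values were seen, in place of a first one that set the upper 2 deciles against the others. By decile of all genes, 20 of the 36 fell in the sixth and the seventh, where 72.4% and 92.6% of all genes had a promoter peak in both libraries.

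**Figure D2:**
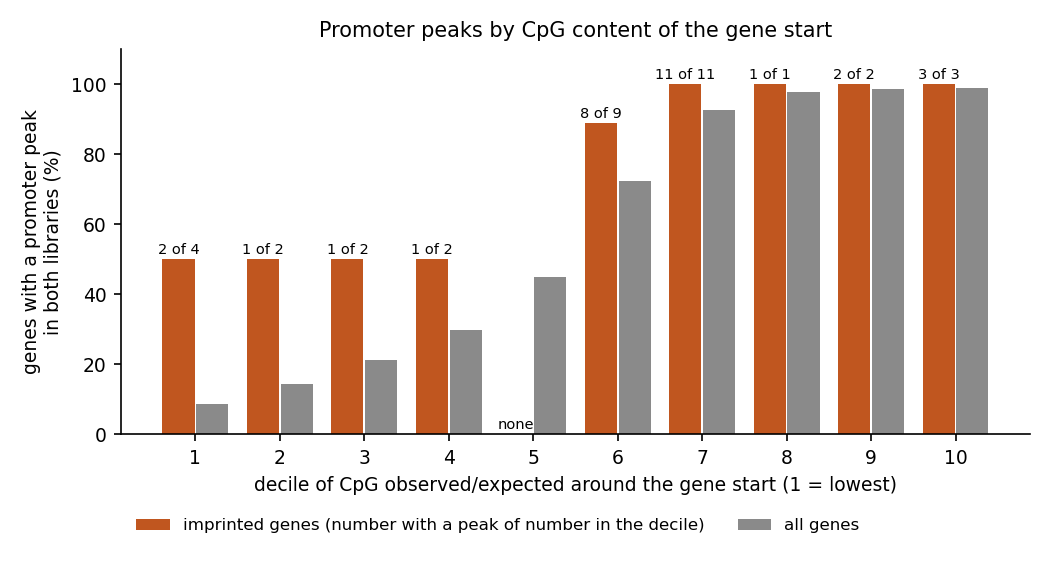
Share of genes with a promoter peak in both libraries (y axis, percent) by decile of CpG ratio at the gene start, with imprinted genes on the left of each pair and all genes on the right. In the seventh decile 11 of 11 imprinted genes had a peak, beside 92.6% of all genes; the bars for imprinted genes rest on the few genes written above them.

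The H19 and Igf2 domain had the widest difference in number of peaks between the libraries, as a ratio, of the 16 domains. H19 is a maternally expressed long noncoding RNA, Igf2 encodes a paternally expressed growth factor, and Ins2 encodes an insulin. H19 had no promoter peak in replicate 1 and 4 in replicate 2, the strongest with a score of 72 and a rank of 72.9 at 88 bp upstream of an annotated start. In replicate 1 the nearest peak to an H19 start was 2093 bp away. Igf2 had 2 promoter peaks in replicate 1 and 11 in replicate 2. Its strongest scored 70 and 80, with ranks of 84.1 and 77.7. Ins2 had no promoter peak in either library, with the nearest peak at 3588 bp in replicate 1 and 3328 bp in replicate 2.

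In the whole domain, meaning the gene bodies with 20 kb on each side, replicate 1 had 14 peaks and replicate 2 had 39. Of these, 13 and 13 overlapped a peak of the other library. The 26 peaks that replicate 2 alone had scored between 25 and 72, with a median rank of 46.8. Of these 26, 12 lay over the body of Igf2, 5 within 1.5 kb upstream of the H19 start, 5 beyond the 3′ end of H19 and 4 elsewhere. Over the body of Igf2 replicate 1 had 2 peaks in all and replicate 2 had 14. With replicate 2 reduced to its strongest peaks, to about as many as replicate 1 had, it still had 37 in this domain, 2.64 times the number in replicate 1. Marker genes of mesenchyme, a list added after these values were seen, had 208 peaks in replicate 1 and 241 in replicate 2 in their windows. This is a ratio of 1.16, and the windows of the retina genes also had 1.16. The median window ratio was 1.2 for all genes with at least 4 window peaks in replicate 1. The windows of 6 pigment epithelium markers held 54 and 68 peaks, a ratio of 1.26. Those of 6 endothelial markers held 54 and 70, a ratio of 1.3. A promoter peak in both libraries was found for 9 of 12, 3 of 6 and 2 of 6 of these markers, and the first share lies near the 68.8% of all protein-coding genes. The part of other cells in the difference between libraries was not tested.

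**Figure D3:**
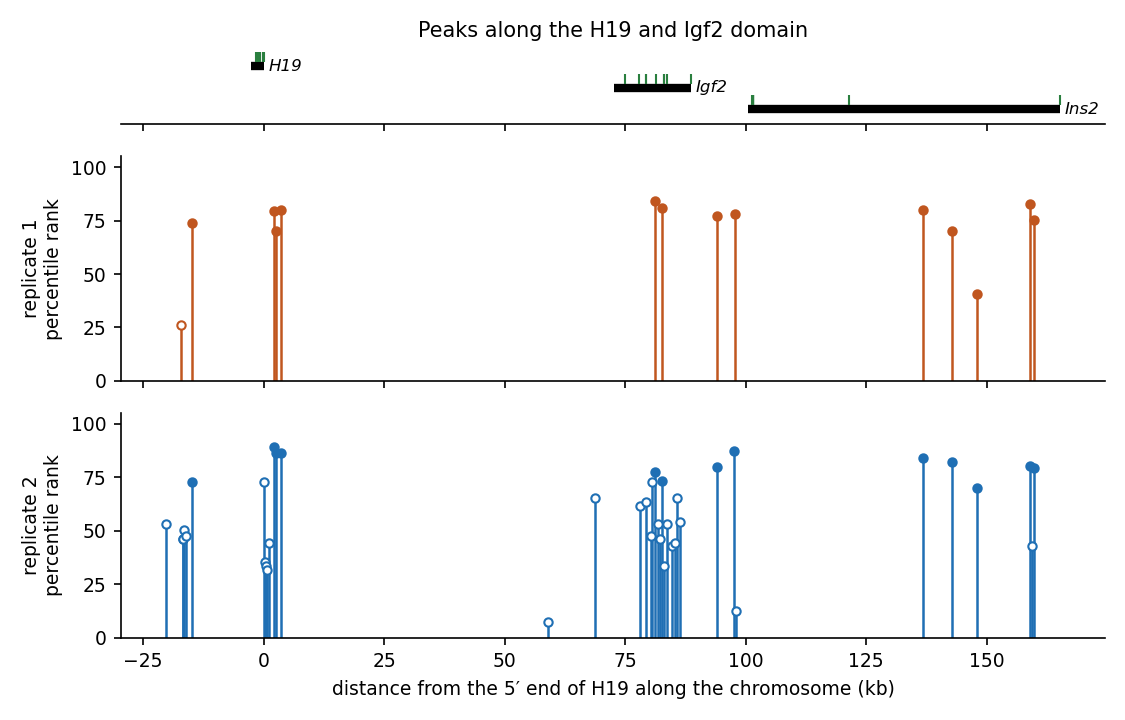
Peaks of replicate 1 (middle) and replicate 2 (bottom) along the H19 and Igf2 domain, by distance from the 5′ end of H19 in kb (x axis) and percentile rank within the library (y axis). Filled circles overlap a peak of the other library and open ones do not, black bars are gene bodies and green ticks annotated starts; replicate 2 has 26 open circles, 12 of them over the body of Igf2.

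The H19 control region itself was accessible in both libraries. It lies upstream of H19 and separates the gene from Igf2 on the chromosome. It is known as an insulator bound by CTCF on the maternal copy and methylated on the paternal one. The stretch from 1.5 to 5 kb upstream of H19 held 3 peaks in replicate 1 and 3 in replicate 2, which are the peaks H19 upstream 1, 2 and 3 above. The first scored 61 in replicate 1 and 103 in replicate 2, with ranks of 79.6 and 89.1. The second scored 46 and 97, with ranks of 70.2 and 86.5, and the last 62 and 97, with ranks of 80.1 and 86.5. All 3 overlapped between libraries, and the stretch held a hotspot at the ceiling of 100 in both. Hotspots at the ceiling are common here, since 26 of the 30 genes with a promoter peak in both libraries had one in both. The first and second each had a match to the H19-type CTCF motif, and the first and the last each had 2 ZFP57 hexamers.

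The Kcnq1ot1 domain lies farther along the same chromosome. Kcnq1ot1 is a long antisense RNA made from the paternal copy that starts inside its own control region and silences neighbouring genes. It had 3 promoter peaks in both libraries, the strongest with scores of 106 and 126 and ranks of 94.8 and 96.1, 62 bp upstream of its start. The strongest peak matched none of the motifs. The peak printed above, which holds 3 ZFP57 hexamers, was another of these 3, with scores of 46 and 70 and ranks of 70.2 and 71.5. A single hotspot at the ceiling covered the start, 1661 bp wide in replicate 1 and 2060 bp in replicate 2.

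Among the genes known to be silenced by it, Phlda2, which restrains placental growth, had scores of 42 and 71 and ranks of 66.9 and 72.2. Ascl2, a transcription factor of the placenta, had scores of 76 and 97 and ranks of 86.6 and 86.5. Slc22a18, of a family of organic cation transporters, had no promoter peak, and the nearest peak was 3531 bp from a start in both libraries. The 3 highest-ranked shared peaks outside promoters in this domain lay between Slc22a18 and Cdkn1c, and all 3 matched the CTCF core. The strongest of them in replicate 1, with 3 matches, scored 94 there and 103 in replicate 2.

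Igf2r encodes a receptor that clears the Igf2 growth factor and is expressed from the maternal copy, while the antisense RNA Airn starts in an intron of it on the paternal copy. Igf2r had scores of 113 and 129 and ranks of 96.1 and 96.8. Airn had scores of 62 and 96 and ranks of 80.1 and 86.0. The receptor gene therefore ranked above the antisense RNA in both libraries.

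The Peg3 domain held the widest promoter hotspot of the 36 genes in both libraries. Peg3 encodes a zinc finger protein, and Usp29, of a family of deubiquitinases, starts beside it on the other strand; both are known to be paternally expressed. Their strongest promoter peak was the same one, the Peg3 start peak above, with scores of 106 and 125 and ranks of 94.8 and 95.9. It lay 848 bp into Peg3, in a hotspot 3710 bp wide in replicate 1 and 4428 bp in replicate 2.

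Farther into Peg3, 1588 bp and 1948 bp from its start, lay a pair of intron peaks that ranked about as high. The nearer one had scores of 109 and 134 and ranks of 95.4 and 98.0, with 1 YY1 match. The farther one, the Peg3 intron peak above, had scores of 102 and 129, with 2 YY1 matches and a ZFP57 hexamer. A cluster of YY1 sites is known from the Peg3 control region. In the whole domain 3 of 31 peaks in replicate 1 and 5 of 39 in replicate 2 had a YY1 match, against 2.78% and 2.57% of all peaks. This was not particular to the Peg3 domain. The Gnas domain had 4 of 23 and 3 of 21 such peaks and the Snrpn domain 3 of 30 and 4 of 34. The remaining domains had at most 2 in either library. Zim1, a maternally expressed zinc finger gene of the same domain, had a promoter rank of 93.8 in replicate 1 and 98.7 in replicate 2.

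Several small domains share the plan of a paternally expressed gene whose promoter is the control region. Peg10, derived from a retrotransposon, and Sgce, which encodes a sarcoglycan, start beside each other and shared their strongest peak, with scores of 78 and 107 and ranks of 87.4 and 90.8. Mest, which encodes a hydrolase-like protein, had 4 promoter peaks in replicate 1 and 9 in replicate 2, the strongest with ranks of 91.8 and 94.5. Nnat, which encodes the small membrane protein neuronatin, lies inside an intron of Blcap. Nnat had scores of 99 and 117 and ranks of 93.4 and 94.0, and Blcap had scores of 103 and 119 and ranks of 94.2 and 94.5. The Nnat domain had the highest density of peaks of the 16 domains, 25.49 per 100 kb in replicate 1 and 36.42 in replicate 2.

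Plagl1, a zinc finger gene that restrains growth, had scores of 110 and 127 and ranks of 95.6 and 96.4. Impact, known as a regulator of translation, had scores of 111 and 129. Zrsr1, a splicing factor gene that lies inside an intron of Commd1, had scores of 65 and 93 and ranks of 81.7 and 84.6. Grb10 encodes an adaptor that dampens insulin signalling, and is known to be expressed from the paternal copy in neurons and from the maternal copy elsewhere. It had 9 promoter peaks in each library, the strongest with ranks of 93.8 and 92.2.

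Peg13, a long noncoding RNA, lies in an intron of Trappc9, which encodes a subunit of a vesicle tethering complex. Peg13 had scores of 96 and 123 and ranks of 92.8 and 95.4, and Trappc9 had scores of 106 and 130. The strongest peak outside promoters in the windows of all the imprinted genes lay 6486 bp upstream of Trappc9, at chr15:73067616-73067765. It scored 138 and 140, with ranks of 99.9 and 99.3, which were above those of the promoters of Peg13 and Trappc9 in both libraries.

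The Gnas domain has several promoters in a row, which are known to differ in imprinting. Gnas encodes the stimulatory G protein subunit and transcripts that start far upstream of it, and Nespas is the antisense RNA. Gnas had 13 promoter peaks in replicate 1 and 11 in replicate 2, at starts spread over its 62.42 kb. The strongest, about 45.5 kb from the 5′ end, scored 108 and 117 with ranks of 95.2 and 94.0. Nespas had scores of 109 and 124 and ranks of 95.4 and 95.7, so the antisense start and the downstream Gnas promoter were about equally strong. The peak nearest to the most upstream Gnas start scored 51 and 66, with ranks of 73.8 and 68.7, below both.

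**Figure D4:**
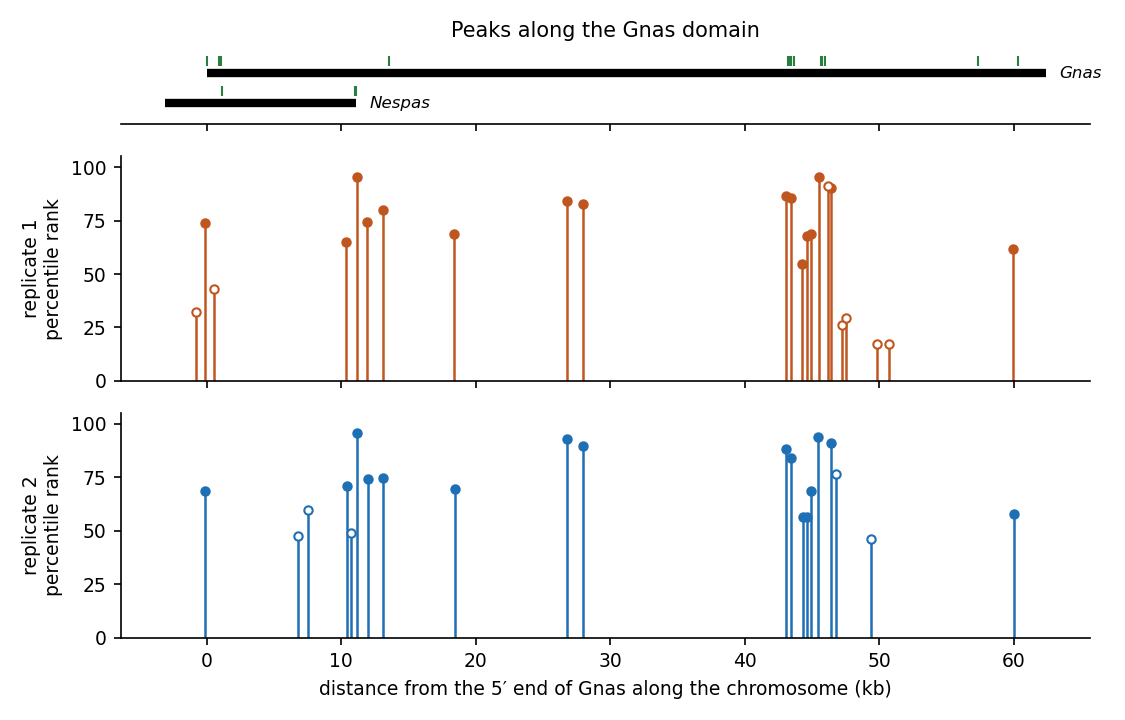
Peaks of replicate 1 (middle) and replicate 2 (bottom) along the Gnas domain, by distance from the 5′ end of Gnas in kb (x axis) and percentile rank within the library (y axis). Filled circles overlap a peak of the other library and open ones do not; the tallest peaks stand near 11.19 kb, at the Nespas start, and near 45.5 kb.

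The Snrpn domain includes neuronal genes whose loss on one parental copy causes Prader-Willi or Angelman syndrome in humans. Snrpn, which encodes a splicing protein and whose start is the control region, scored 63 in replicate 1 and 114 in replicate 2, with ranks of 80.7 and 93.1. This was the widest gap in rank between libraries among the 30 genes. Its start peak, printed above, has 2 ZFP57 hexamers, one on each side of its middle. Ube3a, a ubiquitin ligase gene that is silenced on the paternal copy in neurons, had the highest promoter rank of all 36, with scores of 132 and 145 and ranks of 99.6 and 99.9.

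Magel2, a MAGE family gene, had scores of 82 and 110 and ranks of 88.9 and 91.8. Mkrn3, a RING finger gene, had scores of 84 and 112 and ranks of 89.6 and 92.5. Ndn, which encodes the MAGE protein necdin, had no promoter peak by the annotation used here, which starts the gene 1708 bp upstream of the RefSeq start. The RefSeq start lies within the Ndn exon peak printed above, which scored 93 and 110 with ranks of 92.1 and 91.8. The absence of Ndn from the promoter counts therefore depends on the annotated start, and with RefSeq starts added 31 of 36 genes had a promoter peak in both libraries.

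The Dlk1 and Meg3 domain held 2 of the 6 genes that lacked a promoter peak in at least one library (Rian and Rtl1) and 2 of the 3 with the lowest ranks (Dlk1 and Mirg). Dlk1 encodes a paternally expressed membrane protein related to Notch ligands, and Rtl1 is a paternally expressed gene derived from a retrotransposon. Meg3, Rian and Mirg are noncoding RNAs of the maternal copy. Dlk1 had scores of 36 and 68 and ranks of 60.5 and 70.1, and its hotspot had a −log10 false discovery rate of 2.50 in replicate 1 and 5.3 in replicate 2. Meg3 had scores of 60 and 92 and ranks of 79.1 and 84.1. Mirg had scores of 42 and 61 and ranks of 66.9 and 64.6, at an annotated start other than the RefSeq one, which had no peak within 1 kb.

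Rian and Rtl1 had no promoter peak in either library. The nearest peak to a Rian start lay at 2917 bp in replicate 1 and 2877 bp in replicate 2, and the nearest to the Rtl1 start at 4345 and 6986 bp. The body of Rtl1 held 6 peaks in replicate 1, with scores between 6 and 15, and none in replicate 2. The stretch from 10 to 16 kb upstream of Meg3, where the control region of the domain lies, had no peak in replicate 1. In replicate 2 it had 1, the Meg3 upstream peak above, with a score of 68, a rank of 70.1 and a hotspot value of 2.09. Apart from the upstream stretches of H19, Meg3 and Rasgrf1, the 17 control stretches examined lie 1 kb on either side of annotated starts. These starts belong to genes already counted with a promoter peak in both libraries, so peaks there were given in advance. All but the Meg3 stretch, 16 of the 17, had peaks in both libraries.

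Rasgrf1 encodes an exchange factor that activates Ras and is active in neurons. Its promoter scored 60 in replicate 1 and 99 in replicate 2, with ranks of 79.1 and 87.4. Its control region lies far upstream, outside the 20 kb taken on each side of the genes. The stretch from 25 to 35 kb upstream held 6 peaks in each library. The strongest, the Rasgrf1 upstream peak above, scored 38 and 78 with ranks of 62.9 and 76.6, and has 2 ZFP57 hexamers.

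Peaks were denser in the windows of the imprinted genes than in the genome as a whole. The windows lie around genes, while the genome includes stretches far from any gene. No density for the windows of all genes is given, so the surplus is not shown to be particular to imprinted genes. The windows covered 3.08 Mb in 23 stretches and held 321 peaks in replicate 1 and 433 in replicate 2. This is 10.42 and 14.06 peaks per 100 kb, or 12.24 ± 2.57 (SD, n = 2), against 6.06 and 8.04 genome-wide, or 7.05 ± 1.40 (SD, n = 2). Promoter peaks made up 40.2% and 35.8% of them, against 27.6% and 24.1% of all peaks. Of the window peaks 81.0% in replicate 1 and 58.2% in replicate 2 overlapped a peak of the other library, against 73.2% and 53.9% of all peaks.

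**Figure D5:**
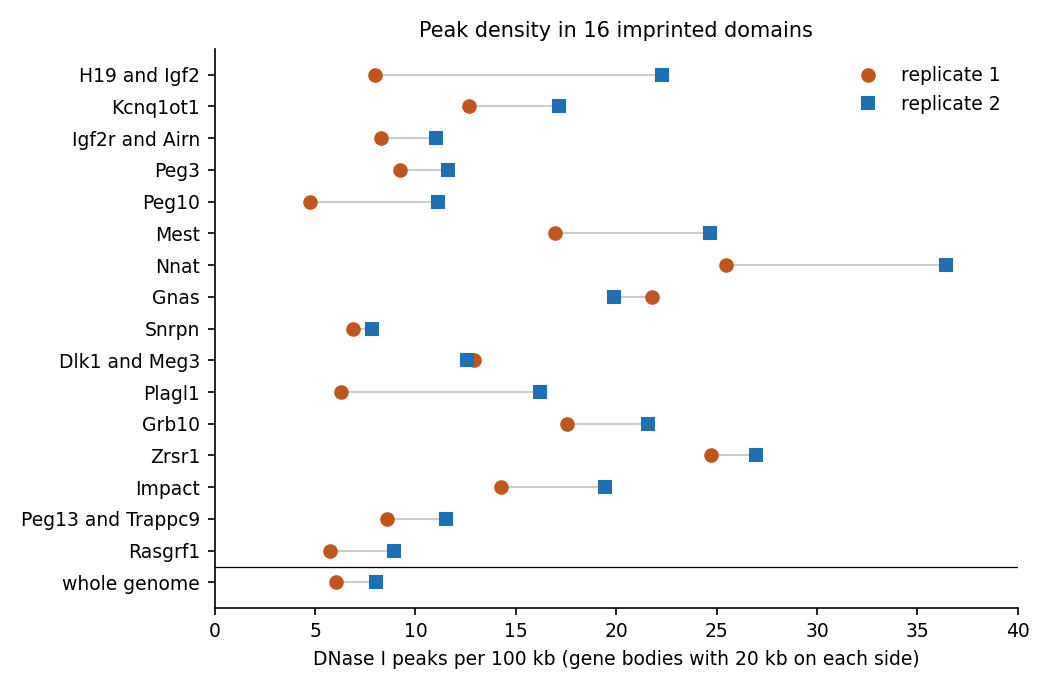
DNase I peaks per 100 kb (x axis) in each of the 16 imprinted domains and, in the last row, in the whole genome, with circles for replicate 1 and squares for replicate 2. The Nnat domain lies highest at 25.49 and 36.42, and the H19 and Igf2 domain has the widest gap, 7.99 and 22.26.

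The surplus of peaks in replicate 2 was uneven over the domains. Genome-wide, replicate 2 had 1.33 times the peaks of replicate 1. The ratio was 2.79 in the H19 and Igf2 domain, 2.57 in the Plagl1 domain and 2.33 in the Peg10 domain, while it was 0.97 in the Dlk1 and Meg3 domain and 0.91 in the Gnas domain. By gene, 34 of the 36 had at least 4 window peaks in replicate 1, and 6 of these had at least 2 times as many in replicate 2 (Igf2, H19, Phlda2, Plagl1, Sgce and Ins2), against 8.65% of all such genes. With replicate 2 reduced to its strongest peaks it was again 6 of 34, against 2.20%. These limits were chosen after the values were seen, and the windows of Igf2 and Ins2 share peaks. After the reduction Phlda2 and Sgce lay on the limit itself, with a ratio of 2.0. Igf2 and Phlda2 lay on the other limit, with 4 window peaks in replicate 1. The contrast with all genes therefore depends on the limits chosen. Among genes with at least 4 window peaks in replicate 1, the median ratio was 1.37 for the imprinted genes and 1.2 for all genes. In all, 28 of the 36 genes had more window peaks in replicate 2, 1 had as many and 7 had fewer. No such count is at hand for all genes. Among the 7 were Rian with 11 and 6 window peaks, Rtl1 with 10 and 5, and Meg3 with 7 and 4, and the window of Rtl1 overlaps those of both others.

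The ZFP57 hexamer was more frequent in the promoter peaks of the imprinted genes than in other promoter peaks. It was present in 19 of 97 promoter peaks of the imprinted genes in replicate 1 and 21 of 124 in replicate 2, which is 19.6% and 16.9%, against 9.97% and 8.82% of all promoter peaks and 5.07% and 4.29% of all peaks. In the 17 control stretches, 20 of 73 peaks in replicate 1 and 21 of 82 in replicate 2 had it. Most of these stretches are promoter windows, so this count largely repeats the promoter peaks just given. The hexamer holds a CpG, and the promoter peaks of the imprinted genes were richer in CpG, with a median ratio of 0.702 and 0.655, against 0.587 and 0.536 for all promoter peaks. The part of CpG content in the share of hexamers was not tested.

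In all window peaks together the shares of both CTCF motifs lay near those of all peaks, with the core somewhat above in both libraries. The CTCF core was found in 18.4% and 15.7% of window peaks, against 15.1% and 13.5% of all peaks. Outside promoters it was found in 20.3% and 17.6% of window peaks, against 14.6% and 12.9% of all peaks outside promoters. In promoter peaks of the imprinted genes it was found in 18.6% and 13.7%, against 16.5% and 15.5% of all promoter peaks. The H19-type CTCF motif was found in 3.4% and 3.9% of window peaks, against 3.88% and 3.58%. In promoter peaks of the imprinted genes it was found in 1 of 97 in replicate 1 and 5 of 124 in replicate 2, or 1.0% and 4.0%, against 5.62% and 5.23% of all promoter peaks. YY1 matches were in 5.0% and 3.5% of window peaks, against the 2.78% and 2.57% given above.

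Other imprinted genes gave a similar picture, but they are not a wholly separate set. Of 43 further imprinted genes, 42 were matched, all but Zfp264, and 34 had a promoter peak in both libraries, against the 68.8% of protein-coding and 33.9% of long noncoding genes given above. The highest ranks in the lower of the libraries were those of Tssc4, Chrac1 and Copg2 (at least 99.7 in both), followed by Nap1l4, Inpp5f and Commd1 at 98.7. No promoter peak was found in either library for Tspan32, Slc22a2, Zim2, Zim3, Tfpi2 and Snhg14. Slc22a3 had one in replicate 2 only and Kcnk9 in replicate 1 only. The strongest promoter peak of Snurf, also on this list, had the same scores (63 and 114) and ranks (80.7 and 93.1) as that of Snrpn. Commd1, around Zrsr1, and Cdkn1c, beside Slc22a18, also lie in domains described above. The count of 34 therefore partly repeats what was given above.

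Of 18 genes that set or keep imprints, 14 had a promoter peak in both libraries, a share near the 68.8% of all protein-coding genes. The highest were Kdm1b, a histone demethylase gene of the oocyte imprint (99.6 and 99.7), Uhrf1, which recruits the maintenance methyltransferase (99.5 and 99.7), and Ctcf (99.3 and 98.9). Arid4b and Trim28, the partner of ZFP57, had ranks of 97.7 and 99.7 and of 97.5 and 96.4. Dnmt3l and Dppa3, which act in germ cells and early embryos, and Ctcfl, the testis paralogue of Ctcf, had no promoter peak in either library. Zfp42 had one in replicate 2 only.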

How the data were processed

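DNase-seq was run on 2 biological replicates of embryonic retina, each with a peak list and a hotspot list on mm10, made per library, as the deposited file lists state. For aligner and caller, name and settings were not given in the sources used. The deposited score of a peak has no stated meaning and was used only for ranks and description within a library. It is written in decimal form for 12.1% of the peaks in replicate 1 and 7.8% in replicate 2. Without these peaks, again 30 of the 36 genes had a promoter peak in both libraries. Hotspots carry a deposited −log10 false discovery rate, read from the column's place in the broadPeak format, with a minimum of 1.30 and a ceiling of 100.

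Exact duplicate lines (34 and 56) and peaks off the assembled chromosomes (232 and 166) were left out. Peaks were set against GENCODE M21 on GRCm38, the same assembly as mm10, with pandas 2.3.3, numpy 2.4.6 and pysam 0.24.0, and the overlap functions were tested on simulated regions against bedtools 2.31.1. A promoter is 1 kb on either side of any annotated start, a window is the gene body with 20 kb on each side, and a shared peak overlaps the other library by at least 1 bp. One peak can count for several genes. Sequences are from the GRCm38 RefSeq genome, and RefSeq starts were at hand for 27 of the 36 genes, without H19, Ins2, Peg10, Sgce, Nespas, Rtl1, Impact, Peg13 and Trappc9.

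The genes and lists were chosen with earlier results of these data known. The named genes are all 36 imprinted genes, and for the further lists the 5 with the highest rank in the lower library and those without a promoter peak. Each library's peak number reflects a depth that is unknown, so no interval or detection limit is given. The replicates were sequenced on partly different instruments, so instrument and replicate cannot be told apart. A retina marker of the list is not reported here.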

Additional observations from a re-analysis of the deposited data

How the results depend on the processing

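The promoter counts changed little with most settings tried and fell most when only the gene's 5′ end was used. Of 36 imprinted genes, 30 had a promoter peak in both libraries within 500 bp of a start, 31 within 2 kb and 26 at the 5′ end only. With the 5′ end only, the further imprinted genes fell from 34 to 31 and the imprint regulators from 14 to 11. The share over all genes was not computed under these settings, so the comparison with all genes rests on the main setting. The median promoter rank, 92.73 over both libraries, moved to 88.06 when only the gene's 5′ end was used. Peaks per 100 kb in the windows moved to 7.516 when only the stronger ranks, above 50, were kept, since that keeps fewer peaks. Leaving out a replicate gave between 30 and 31 genes with a promoter peak, a median rank between 92.32 and 93.13 and a density between 10.42 and 14.06. The same gave 30 to 31 genes with a promoter hotspot, 35 further imprinted genes in either case, and 14 to 15 imprint regulators. The share of peaks overlapped by the other library cannot be had from a single library. Reducing replicate 2 to its strongest peaks and adding RefSeq starts were chosen after seeing the data. No paired analysis was possible because there is a single group. The unknown depth limits what a missing peak says: it was not called, and is not shown to be closed.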

Other observations

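Outside the 36 genes, Zdbf2, an imprinted gene with a paternally expressed upstream transcript, also differed between the libraries. Its window held 15 peaks in replicate 1 and 57 in replicate 2, or 49 with replicate 2 reduced to its strongest peaks, while its promoter rank was 88.5 and 83.6. Sfmbt2, a Polycomb-related gene, had 13 and 31 window peaks, or 19 in replicate 2 after the same reduction. Cdkn1c, the cell cycle inhibitor beside Slc22a18, had 14 and 15 window peaks and promoter ranks of 96.9 and 96.8. These genes were chosen after their values were seen.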
